A study of Rattus norvegicus with 9 samples.

Results

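The genes described here are 7 inflammatory genes whose transcription is linked to NF-kappa-B. They are the inhibitor gene Nfkbia (ENSMUSG00000021025), the adhesion molecule genes Icam1 (ENSMUSG00000037405) and Vcam1 (ENSMUSG00000027962), the chemokine genes Ccl2 (ENSMUSG00000035385), Cxcl1 (ENSMUSG00000029380) and Cxcl10 (ENSMUSG00000034855), and the complement gene C3 (ENSMUSG00000024164). They were chosen by name, with earlier results of these data known, and were looked up by Ensembl identifier. Of the 7 identifiers, 6 stood among the 17862 features of the files. The identifier of Ccl2, a chemokine that attracts monocytes, was absent. Every listed feature had a value above 0 in all 9 libraries, so a gene at 0 in any library was not analysed here.

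RNA was sequenced from kidney tissue in 3 groups of 3 samples. The QDG group was hypertensive and received Qingda granule, a Chinese herbal preparation. The Model group was hypertensive and the WT group was labelled normal. All were 6 weeks old, and the libraries were made from total RNA after removal of ribosomal RNA. The sources used here do not give the strain, how hypertension was brought about, the dose or the length of treatment. An effect of hypertension cannot be told apart from any other difference between the Model and WT samples. Nothing states that samples within a group are separate animals, so the p-values measure the spread between libraries, and part of that spread may be technical.

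The labels name the brown rat, while the identifiers carry the prefix of mouse genes. The files pair no identifier with a name, and the gene names used here come from the list of members. Markers of kidney segments, endothelium, leukocytes and hepatocytes could not be looked up for the same reason, so the tissue label was not checked against them. In bulk tissue, fewer cells of a type and less RNA per cell cannot be told apart.

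NF-kappa-B is a family of transcription factors held in the cytoplasm by inhibitor proteins. When cytokines or pattern-recognition receptors activate the pathway, the inhibitor is phosphorylated and degraded, the factor enters the nucleus, and genes for adhesion molecules, chemokines and complement are transcribed. Nfkbia encodes the main inhibitor, I-kappa-B-alpha, and is itself a target, which closes a feedback loop. In kidney, endothelial and tubular cells can produce these molecules, and leukocytes that bind them enter the tissue.

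Promoter sequences were searched for the DNA words that NF-kappa-B is known to bind. RefSeq promoters of the rat assembly GRCr8 were matched by symbol for 6 of the 7 genes, and each spans 250 bases before to 50 bases after the start of the gene that the table uses. Because the files carry mouse identifiers, these rat sequences are background and not the assembly behind the values. A pair of patterns, chosen after the sequences had been seen, were searched on both strands, and their matches can overlap. One was the degenerate kappa-B consensus, found in 7.51% of 33469 rat promoters of the same length. The other was the shorter word GGANTTTCC, found in 1.28% of them. Nfkbia, Cxcl1 and Cxcl10 hold both patterns. The promoters of Nfkbia and Cxcl10 are printed as examples, beside that of C3, which holds neither. Capitals mark matches to either pattern.
Nfkbia, chr6:78597023-78597322, minus strand: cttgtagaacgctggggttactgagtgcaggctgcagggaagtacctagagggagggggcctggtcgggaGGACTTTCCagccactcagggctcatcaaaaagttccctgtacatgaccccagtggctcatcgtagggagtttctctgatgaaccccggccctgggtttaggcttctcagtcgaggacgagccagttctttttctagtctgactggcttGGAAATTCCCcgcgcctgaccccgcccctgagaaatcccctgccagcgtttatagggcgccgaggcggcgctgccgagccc
Cxcl10, chr14:15988816-15989115, plus strand: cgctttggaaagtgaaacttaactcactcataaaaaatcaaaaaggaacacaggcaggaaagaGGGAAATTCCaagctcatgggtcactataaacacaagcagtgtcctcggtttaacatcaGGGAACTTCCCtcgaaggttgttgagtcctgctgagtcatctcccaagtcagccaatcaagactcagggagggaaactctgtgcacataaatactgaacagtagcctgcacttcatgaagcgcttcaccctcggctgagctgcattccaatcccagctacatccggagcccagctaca
C3, chr9:2201290-2201589, minus strand: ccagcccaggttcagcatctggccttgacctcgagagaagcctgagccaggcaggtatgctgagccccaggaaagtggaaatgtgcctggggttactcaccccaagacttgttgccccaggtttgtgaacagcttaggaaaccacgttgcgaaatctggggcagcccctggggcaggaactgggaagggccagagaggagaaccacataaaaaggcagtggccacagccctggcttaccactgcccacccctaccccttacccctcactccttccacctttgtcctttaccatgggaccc

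In Nfkbia, GGACTTTCC began 180 bases before the start, and GGAAATTCCC, a consensus match on the other strand, began 31 bases before it. Icam1 held GGAAATTCC, the reverse complement of a GGANTTTCC match, 218 bases before its start, and no full consensus. Vcam1 held the consensus match GGGATTTCCC 93 bases before its start, which matched on both strands. Cxcl1 held the consensus match GGGAATTTCC 84 bases before its start, and within it GGAATTTCC, a match to the shorter word, at 83 bases, where the consensus also matched on the other strand. Cxcl10 held GGGAAATTCC at 187 bases and GGGAACTTCC at 128 bases before its start. Each of the 5 promoters other than C3 thus held at least 1 of the patterns. Because the patterns were chosen after these sequences had been seen, this count is only a description. For C3 the search says only that these letters are not in this window, and no match is evidence of binding.

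The authors named no unit, and the values were taken as FPKM, which scale reads to the length of a feature and to a divisor for each library. Levels of different genes are set side by side on this scale. With rat labels and mouse identifiers, whether reads of each gene were captured equally well was not tested. Whole reads were recovered from the steps in the values, and the divisors implied by the steps lay between 26.2 M and 31.4 M reads. Nfkbia was the most abundant of the 6 genes, with a mean of 20.7 FPKM over the 9 libraries, above 87.0% of all features. C3 followed at 10.4 FPKM and Icam1 at 3.70 FPKM, above 76.8% and 56.5% of features. Cxcl10 averaged 1.49 FPKM, Vcam1 0.968 FPKM and Cxcl1 0.365 FPKM. The order was the same in 8 of the 9 libraries. In Model 2, Vcam1 stood above Cxcl10. Of the neighbours in this order, C3 and Icam1 overlapped in Model, as did Cxcl10 and Vcam1, and no other neighbours overlapped within a group.

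Features averaging 1 FPKM or more were tested, which left 4 of the 6 genes (Nfkbia, Icam1, Cxcl10 and C3) among 12187 features. Vcam1 and Cxcl1 were under this limit and are given as values. A log2 change here is a difference of group means of log2(FPKM + 1) from limma, fitted to all 9 libraries. Adding 1 FPKM pulls the changes and intervals of genes near or under 1 FPKM toward 0. For Cxcl10, Vcam1 and Cxcl1 they thus look smaller and narrower than on a plain log2 scale. A feature was called where its p-value, adjusted over all tested features by the Benjamini-Hochberg method, was under 0.05. The exact permutation test of 3 against 3 samples cannot go below p = 0.1, the value it reaches when the groups do not overlap.

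**Figure D1:**
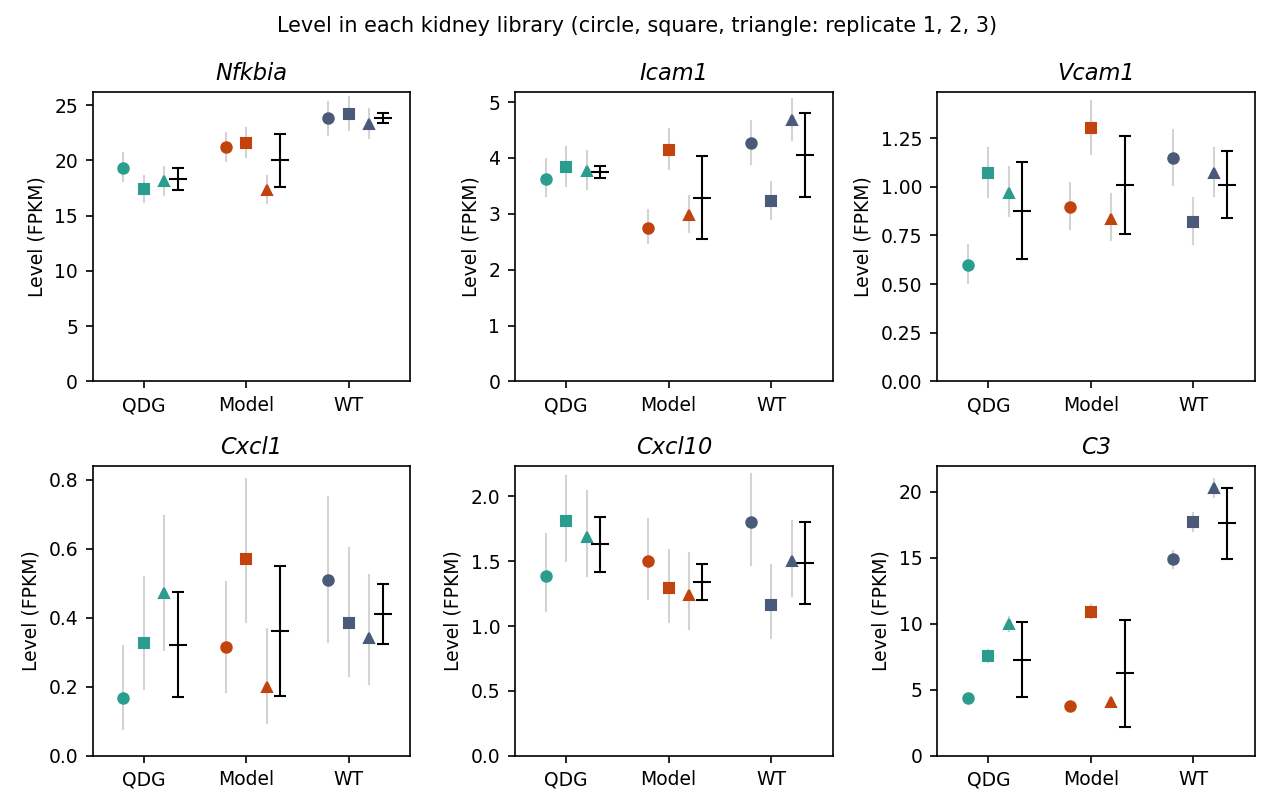
Level of each gene in FPKM on a linear axis from 0 in the QDG, Model and WT libraries; colored symbols are single libraries, grey lines their 95% Poisson counting intervals, and black marks the group mean with its SD (n = 3). For C3 and Nfkbia every QDG and Model library lies below every WT library, and for the other genes the groups overlap.

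C3, the central component through which all complement pathways act, was lower in Model kidneys than in WT kidneys. Its level was 3.78, 10.9 and 4.05 FPKM in the Model libraries, against 14.9, 17.7 and 20.3 FPKM in the WT libraries. The highest Model library, Model 2, stood below the lowest WT library, and the other Model libraries were far below both. The means were 6.24 ± 4.03 FPKM in Model and 17.6 ± 2.69 FPKM in WT (SD, n = 3 each), so the Model mean was 64.6% lower. The log2 change was −1.49 with an SE of 0.35 and a 95% interval of −2.26 to −0.72 (limma adjusted p = 0.0331, exact permutation p = 0.1). C3 was the only gene of the 4 tested that was called, where 7.90% of all tested features were called in either direction and 1.90% as lower. It ranked 13 by size of change among the 231 features called lower in Model. A list of 4 genes is too short for its share to be read against that background.

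The C3 values rest on many reads, 559 to 1681 per Model library and 2005 to 3272 per WT library. Counting alone would give an SD of 0.205 FPKM in Model and 0.350 FPKM in WT, far below the observed SDs. Counting error was thus a small part of the spread. Markers of leukocytes or of single nephron segments could not be set beside C3, and the part of cell makeup in its difference was not tested. The call was lost when only the Model and WT libraries were fitted (limma adjusted p = 0.0618), and also without WT 1, WT 2, WT 3, Model 1, Model 3 or QDG 2 (limma adjusted p = 0.0543 to 0.110), while the log2 change stayed between −1.25 and −1.91 over all alternatives. Without Model 2, the log2 change was −1.91 (limma adjusted p = 0.00623).

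Nfkbia was lower in every Model library than in every WT library, by a margin that did not pass the test. Its level was 21.2, 21.6 and 17.3 FPKM in Model, against 23.8, 24.2 and 23.3 FPKM in WT. Model 3 was the lowest of these, and Model 1 and Model 2 lay just under the WT range. The log2 change was −0.24 with an SE of 0.11, which did not pass (limma adjusted p = 0.171, unadjusted p = 0.0465, exact permutation p = 0.1). Its 95% interval, as a ratio of FPKM + 1, ran from 0.717 to 0.997. An unadjusted p under 0.05 was found in 28.0% of all tested features. Of the 4 tested genes, 2 had groups that did not overlap, C3 and Nfkbia, and 28.2% of all tested features had such groups.

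The WT values of Nfkbia were close together, with an SD of 0.461 FPKM where counting alone would give 0.729 FPKM. Model libraries varied more, with an SD of 2.37 FPKM against a counting SD of 0.659 FPKM. Nfkbia is short, with a recovered length of 1610 bases. The 1170 tested features within 0.8 to 1.25 times its length had a median log2 change of 0.18 in Model against WT, in the direction opposite to Nfkbia. With the trend over length removed from each library, the log2 change of Nfkbia was −0.43 (limma adjusted p = 0.0709). For C3, at 5143 bases, the median of the 2876 features of similar length was −0.01.

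The adhesion genes did not separate Model from WT. Icam1 encodes a ligand for leukocyte integrins on activated endothelium and epithelium. It stood at 2.75, 4.14 and 2.98 FPKM in Model, against 4.26, 3.22 and 4.67 FPKM in WT. The groups overlapped through Model 2 and WT 2, and the log2 change was −0.24 with a 95% interval of −0.56 to 0.08 (limma adjusted p = 0.307, exact permutation p = 0.2). Vcam1, which encodes the endothelial ligand that binds lymphocytes and monocytes, stood at 0.897, 1.30 and 0.836 FPKM in Model, against 1.15, 0.819 and 1.07 FPKM in WT. The Model and WT means, 1.01 ± 0.252 and 1.01 ± 0.173 FPKM (SD, n = 3 each), were nearly equal. When all 17862 features were tested, its log2 change was −0.01 with a 95% interval of −0.29 to 0.28 (limma adjusted p = 0.986).

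Neither chemokine gene differed between Model and WT beyond the spread of its libraries. Cxcl10 encodes an interferon-induced attractant of activated T cells. Its level was 1.50, 1.29 and 1.24 FPKM in Model, against 1.80, 1.16 and 1.50 FPKM in WT. The Model values fell inside the WT range, with a log2 change of −0.08 and a 95% interval of −0.35 to 0.19 (limma adjusted p = 0.700, exact permutation p = 0.6). Cxcl1, which encodes a neutrophil attractant, stood at 0.315, 0.569 and 0.199 FPKM in Model, against 0.509, 0.385 and 0.340 FPKM in WT. These values rest on 10 to 32 reads in Model and 19 to 25 reads in WT, and counting alone would give an SD of 22.6% of the mean in Model and 21.7% in WT. The observed SD was 52.4% of the mean in Model and 21.3% in WT. The groups overlapped (exact permutation p = 0.7).

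**Figure D2:**
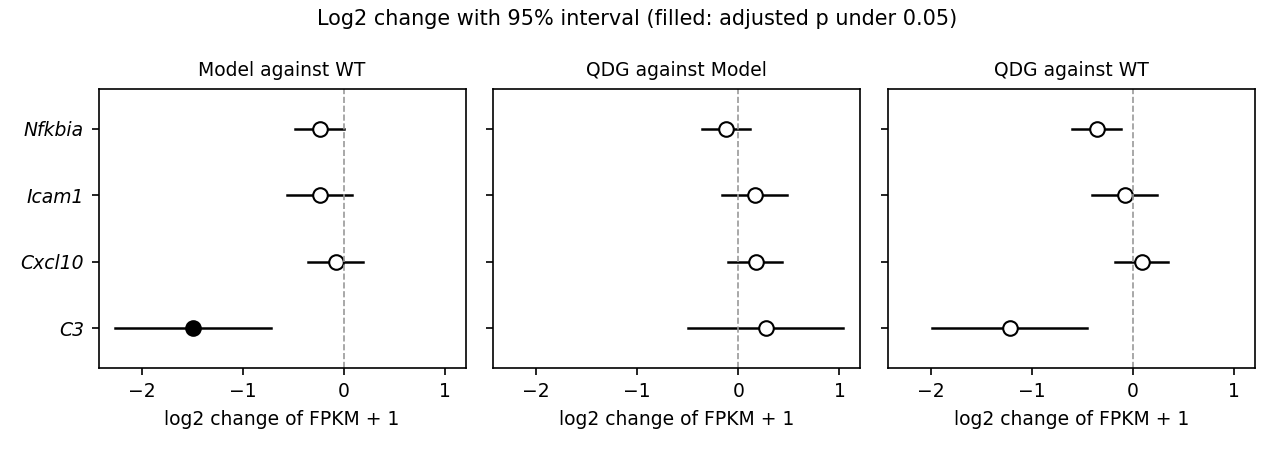
Log2 change of FPKM + 1 with its 95% interval from limma for the 4 tested genes in the 3 comparisons; filled points have an adjusted p under 0.05. C3 in Model against WT, at −1.49, is the only filled point, and the intervals in QDG against Model all include 0.

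Set against untreated hypertensive kidneys, granule-treated kidneys showed no difference in these genes that passed the test. None of the 4 tested genes was called (limma), and 0% of all 12187 tested features was called, with 13.9% of them at an unadjusted p under 0.05. None of the 4 genes reached an unadjusted p under 0.05, and voom on recovered reads also called none of them. All 6 genes had overlapping groups, where 26.7% of tested features did not overlap.

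C3 stood at 4.34, 7.54 and 9.96 FPKM in QDG, against 3.78, 10.9 and 4.05 FPKM in Model. The ranges overlapped, since the 1 high Model library exceeded every QDG library and the others lay below them. The means were 7.28 ± 2.82 FPKM in QDG and 6.24 ± 4.03 FPKM in Model (SD, n = 3 each). The log2 difference came to 0.27, with a 95% interval of −0.50 to 1.04 (limma adjusted p = 0.754, exact permutation p = 0.7). As a ratio of FPKM + 1 its 95% interval ran from 0.706 to 2.05, so neither a fall nor a rise of moderate size in QDG is outside it. Without Model 2 the log2 difference was 0.69 (limma adjusted p = 0.361).

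Nfkbia was at 19.3, 17.4 and 18.1 FPKM in QDG, against 21.2, 21.6 and 17.3 FPKM in Model. QDG libraries lay inside the Model range, and the log2 difference was −0.12 with a 95% interval of −0.36 to 0.12 (limma adjusted p = 0.634). Its sign depended on the processing, since the log2 difference was 0.05 with the trend over length removed. Icam1 was at 3.63, 3.83 and 3.77 FPKM in QDG, against 2.75, 4.14 and 2.98 FPKM in Model, with a log2 difference of 0.16 and a 95% interval of −0.16 to 0.48 (limma adjusted p = 0.637). The QDG values of Icam1 were closer together, with an SD of 0.103 FPKM, than counting alone would give (0.173 FPKM). The Model SD of Icam1 was 0.746 FPKM.

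Cxcl10 was at 1.39, 1.81 and 1.69 FPKM in QDG, against 1.50, 1.29 and 1.24 FPKM in Model. QDG 2 and QDG 3 were above every Model library and QDG 1 was not. The log2 difference was 0.17 with a 95% interval of −0.10 to 0.43 (limma adjusted p = 0.554, exact permutation p = 0.2). With 0.1 instead of 1 FPKM added it was 0.26, and with voom on recovered reads 0.30. Neither was called (limma adjusted p = 0.56 and 0.553). Vcam1 was at 0.596, 1.07 and 0.967 FPKM in QDG, against 0.897, 1.30 and 0.836 FPKM in Model, and QDG 1 held the lowest of these values. Cxcl1 was at 0.167, 0.328 and 0.471 FPKM in QDG, from 9, 18 and 25 reads, against 0.315, 0.569 and 0.199 FPKM in Model. With all 17862 features tested, the log2 differences of QDG against Model were −0.10 for Vcam1 and −0.04 for Cxcl1 (limma adjusted p = 0.787 and 0.911).

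The comparison of QDG with WT shows what stood apart from normal kidney under treatment. It shares the WT libraries with the comparison of Model with WT, so the 2 are not independent. No gene was called, where 2.47% of tested features were called, but C3 and Nfkbia again had groups without overlap, as did 27.7% of tested features. C3 was at 4.34, 7.54 and 9.96 FPKM in QDG, against 14.9, 17.7 and 20.3 FPKM in WT, and its mean was 58.7% lower in QDG. The log2 change was −1.22 with a 95% interval of −1.99 to −0.45 and did not pass (limma adjusted p = 0.0861, unadjusted p = 0.00532, exact permutation p = 0.1). It passed when only the QDG and WT libraries were fitted (limma adjusted p = 0.0347) and without Model 2 (limma adjusted p = 0.0221), a library that is in neither group but adds to the shared estimate of the spread.

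Nfkbia had all 3 QDG libraries, at 19.3, 17.4 and 18.1 FPKM, below the 3 WT libraries, at 23.8, 24.2 and 23.3 FPKM. Its mean was 23.1% lower in QDG, at 18.3 ± 1.00 FPKM against 23.8 ± 0.461 FPKM in WT (SD, n = 3 each). The log2 change was −0.36 with an SE of 0.11 and did not pass (limma adjusted p = 0.0973, unadjusted p = 0.00678, exact permutation p = 0.1). An unadjusted p under 0.05 was found in 21.3% of tested features. Over the 19 alternatives the log2 change lay between −0.40 and −0.33 and passed under none of them (lowest limma adjusted p = 0.0638).

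Icam1, Cxcl10, Vcam1 and Cxcl1 overlapped between QDG and WT. The log2 changes were −0.08 for Icam1 (95% interval −0.40 to 0.24, limma adjusted p = 0.788) and 0.09 for Cxcl10 (95% interval −0.18 to 0.35, limma adjusted p = 0.721). With all features tested they were −0.11 for Vcam1 (95% interval −0.39 to 0.18) and −0.10 for Cxcl1 (95% interval −0.35 to 0.15). Each interval includes 0. The added 1 FPKM shrinks the changes of Vcam1 and Cxcl1, whose mean FPKM were 13.4% and 21.7% lower in QDG than in WT.

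The median log2 change of the 4 tested genes was −0.24 in Model against WT, with all 4 below 0 (Cxcl10 at 0.01 without WT 1), beside a median of 0.02 over all tested features. In QDG against Model it was 0.16, with 3 above 0 and 1, Nfkbia, below (above with the trend over length removed), beside −0.02 over all features. In QDG against WT it was −0.22, with 3 below 0 and 1, Cxcl10, above, beside 0.0 over all features. The share of all tested features on each side of 0 was not counted, so these tallies have no background. Without WT 3 Icam1 stood at 0.01, and without WT 2 Cxcl10 stood at −0.01.

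**Figure D3:**
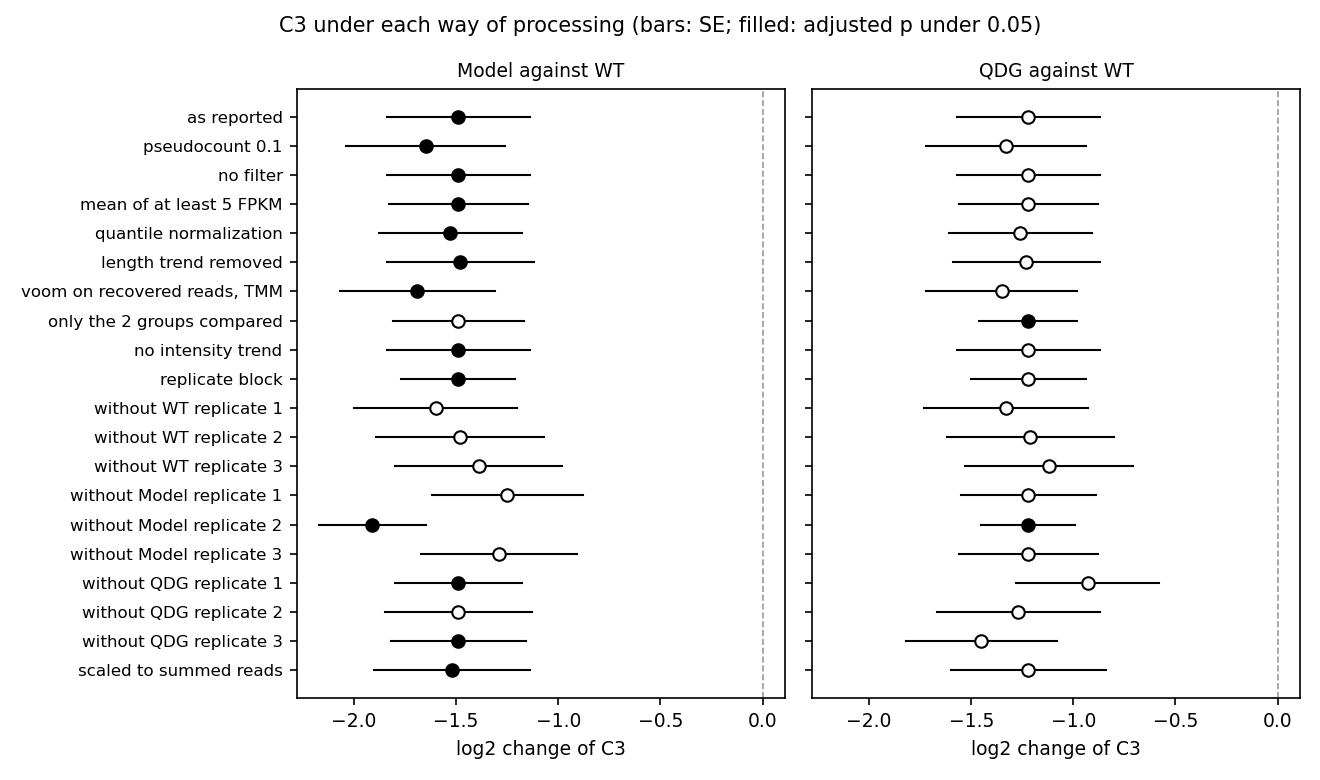
Log2 change of C3 in Model against WT and in QDG against WT under each way of processing, with its SE as a bar; filled points have an adjusted p under 0.05. All points lie below 0, and the Model points range from −1.91 to −1.25 and the QDG points from −1.45 to −0.93.

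Because a ratio of 2 genes within a library does not depend on the divisor of that library, C3 was also set against Nfkbia. A trend over length does not cancel. In Model against WT, features of similar length had a median log2 change of −0.01 for C3 and 0.18 for Nfkbia. The C3 level was 0.224, 0.434 and 0.550 times that of Nfkbia in QDG, 0.179, 0.505 and 0.234 times in Model, and 0.626, 0.732 and 0.870 times in WT. All hypertensive libraries, treated or not, had a lower ratio than all WT libraries. C3 alone already lay lower in all of them, so the ratio largely restates that difference and is not separate support. The ratio of Icam1 to Vcam1 was 6.09, 3.58 and 3.90 in QDG, 3.06, 3.19 and 3.57 in Model, and 3.71, 3.93 and 4.35 in WT. QDG 1, with the lowest Vcam1 level, had the highest of these ratios.

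Within groups, several of the genes were high or low in the same library. Model 2 was the highest Model library for 5 of the 6 genes, Cxcl10 being the exception. QDG 1 was the lowest QDG library for 5 of the 6 genes, Nfkbia being the exception, where it was the highest. In WT no library was highest or lowest for more than 3 genes. How many of all tested features were highest in Model 2 or lowest in QDG 1 was not counted. Whether this pattern is particular to these genes was thus not tested. On the log2(FPKM + 1) scale C3 deviated most, by 0.85 in Model 2 and by −0.57 in QDG 1, each from the mean of its own group. That scale flattens genes of low level such as Cxcl1. As a share of the mean, the SD in QDG was 38.7% for C3 and 47.2% for Cxcl1, and in Model 64.6% and 52.4%.

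**Figure D4:**
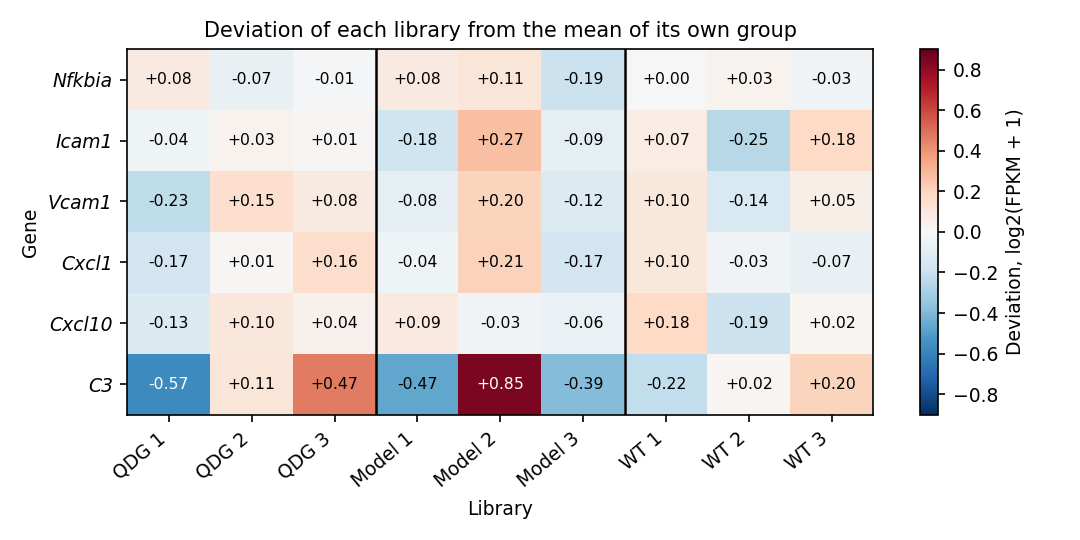
Deviation of each library from the mean of its own group, in log2(FPKM + 1), for the 6 genes (rows) in the QDG, Model and WT libraries (columns). Model 2 is above its group mean for 5 genes and QDG 1 is below its group mean for 5 genes, with C3 at 0.85 and −0.57.

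Over the 9 libraries, the deviations from the group mean had a Pearson r of −0.08 to 0.81 over the 15 pairs of genes. It was highest at 0.81 between Vcam1 and Cxcl1, 0.80 between Cxcl1 and C3, 0.77 between Vcam1 and C3 and 0.74 between Icam1 and Vcam1. Nfkbia had r = 0.14 with Icam1, 0.06 with Vcam1, 0.39 with Cxcl1, −0.08 with Cxcl10 and 0.19 with C3, and Cxcl10 had r = 0.04 with C3. With the trend over length removed, r ran from −0.02 to 0.85. It was 0.68 between Nfkbia and Cxcl1, 0.56 between Vcam1 and Cxcl1, 0.83 between Cxcl1 and C3, 0.67 between Vcam1 and C3 and 0.85 between Icam1 and Vcam1. These are descriptions over 9 libraries that share their depth and scaling, and Cxcl1 carries a large counting error.

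On the levels themselves, with group differences included, the closest partner was Cxcl1 for Vcam1 (r = 0.81), C3 for Icam1 and for Nfkbia (r = 0.69 and 0.68), and Icam1 for Cxcl10 (r = 0.41). Among all other tested features, ENSMUSG00000020057 and ENSMUSG00000000317 were most like the mean of the 6 standardized genes, with r = 0.95 and 0.94 over 9 libraries. ENSMUSG00000020057 ranged over 2.05 to 2.78 FPKM in QDG, 1.54 to 2.92 FPKM in Model and 2.76 to 4.07 FPKM in WT. These 2 were the extreme of all tested features outside the 6 genes, so a high r is fixed by the choice.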

How the data were processed

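Kidney RNA of 9 samples was measured after ribosomal RNA removal, per the labels' protocols. The authors deposited a single value for each feature in each sample and named no unit. The deposited values were taken as FPKM because they move in steps of whole reads divided by feature length and a library divisor. Whole reads were recovered for 17862 features (tolerance 0.0001 read plus a relative 2e-07). The divisors were 0.937 to 1.11 times the reads summed over the listed features (26.8 M to 29.4 M). After centring they lay within 1.27% of trimmed mean of M-values (TMM) factors computed from the recovered reads. No source used here gives the aligner, counter, build or annotation, and the submitters' processing notes name limma.

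Features averaging 1 FPKM or more were fitted as log2(FPKM + 1) with limma 3.58.1 (R 4.3.3), an intensity trend and 1 shared spread for 3 groups of 3. The fit was also tested on simulated data. Exact permutation tests used scipy 1.17.1. Poisson intervals cover counting error only. All 7 genes are named by rule. The members and lists were chosen with earlier results of these data known. Lists of pathway genes and cell markers, written in symbols, were not used, since the files give identifiers and the rat table of 47357 genes lists no Ensembl identifiers. Alternatives were another pseudocount (0.1), no filter or a mean of 5 FPKM, quantile normalization, removal of a length trend, voom on recovered reads, 2-group fits, no intensity trend, a replicate block and leaving out each library. Scaling to summed reads was added after seeing the data.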

Additional observations from a re-analysis of the deposited data

How the results depend on the processing

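Model against WT called 1 of the 4 tested genes, C3, and 0 when only the 2 groups were fitted. With 1 library left out it called 0 to 1. C3 kept its direction under all 19 alternatives and its call under 12. QDG against Model called 0 under all 19. QDG against WT called 0, 1 (C3) with only the 2 groups fitted, and 0 to 1 with 1 library left out. Some small differences that were never called changed sign. In Model against WT, Cxcl10 had a log2 change of 0.01 without WT 1 (−0.18 to 0.01 with 1 library left out). In QDG against Model, Nfkbia had 0.05 with the length trend removed. In QDG against WT, Icam1 had 0.01 without WT 3 (−0.20 to 0.01) and Cxcl10 −0.01 without WT 2 (−0.01 to 0.17). The cause was not tested.

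Over all tested features, the 963 calls in Model against WT became 144 with 2 groups fitted, 533 with the replicate block and 195 to 1529 with 1 library left out. The 0 in QDG against Model became 1 with 2 groups fitted and up to 3 with 1 library left out. The 301 in QDG against WT became 515 after quantile normalization, 530 with the length trend removed, 486 with 2 groups fitted, 154 with the replicate block and 39 to 775 with 1 library left out. Of the calls in Model against WT, 732 of 963 were higher in the deposited scaling, 431 of 714 after quantile normalization and 475 of 758 with the length trend removed.

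The labels give same-numbered libraries a shared number and state no pairing. Correlations of their deviations were −0.33 to 0.14, and those of differently numbered libraries −0.24 to 0.43. With 3 libraries a group, these values cannot settle whether libraries were paired. With the replicate block, C3 in Model against WT had a log2 change of −1.49 (limma adjusted p = 0.0336) and no call of the 4 genes changed. Cxcl1 had 9 to 32 reads a library. Its observed SD was 47.2% of the mean in QDG, 52.4% in Model and 21.3% in WT, where counting alone would give 24.0%, 22.6% and 21.7%.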
